A study of Homo sapiens with 15 samples.

Results

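The proneural basic helix-loop-helix (bHLH) genes NEUROG1, NEUROG2, NEUROG3, NEUROD1, NEUROD2, NEUROD4, NHLH1, NHLH2 and BHLHE22 were followed from self-renewing neuromesodermal progenitors (srNMPs) to neurons. They were taken by name, and all 9 are among the 17999 gene symbols of the expression table. Proneural bHLH proteins are transcription factors that pair with widely expressed E proteins and bind E-boxes, short DNA motifs of the form CANNTG. Neurogenins act early, when a dividing neural progenitor commits to becoming a neuron, and they switch on NEUROD, NHLH and Notch ligand genes. NEUROD and NHLH factors carry differentiation forward in the newborn neuron, while ID proteins (which trap E proteins) and HES and HEY repressors (which act downstream of Notch) hold the programme back.

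Messenger RNA was sequenced from 15 cultures of 2 established human embryonic stem cell lines, H1 and HUES9, all labelled WT. The srNMPs, which can give rise to spinal cord and to skeletal muscle, were taken at passage 8 and passage 25. Inductions of 7 days, labelled RABC and RASS (abbreviations the labels leave unexplained), were labelled as neuron progenitors, and dorsal and ventral neurons as neurons; these 4 groups and both srNMP passages carry the treatment label of neural induction. Each of these 6 groups held 1 library labelled H1 and 1 labelled HUES9. Undifferentiated HUES9 embryonic stem cells (ESCs, labelled as not induced) and HUES9 skeletal muscle at day 40 and day 50 (labelled as induced to skeletal muscle) gave 1 library each. Replicates are therefore the 2 lines, each a single line of stem cells. The fit removes the mean difference between the labelled lines, so p-values measure the spread left within groups after that. Printed SDs are another spread, over all libraries of a state or group. Nothing in the labels places the libraries in separate cultures beyond the line.

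Levels are in FPKM (a fragment count divided by transcript length and by library size), and differences are on the log2(FPKM + 1) scale with their standard error, which understates the change of low genes. A gene was called at a limma adjusted p under 0.05 over the 14129 genes that reached 1 FPKM in at least 1 library. All 9 genes passed that filter, NEUROD2 only through the neurons. The values of the 9 genes were whole multiples of a unit per gene within 0.02 of a fragment. In these units 1 fragment was worth 0.00642 to 0.0172 FPKM, and the genes held 0 to 6227 fragments in the inductions and 0 to 30 in muscle. Levels came from bulk cultures, so fewer cells that express a gene and less RNA per cell cannot be told apart.

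Summed markers of the labelled cell types were mostly high where the labels place them, with the exceptions given here. The pluripotency list (POU5F1, NANOG, ZFP42 and PRDM14) summed to 913 FPKM in ESCs and to at most 0.801 FPKM in srNMPs, inductions and neurons. The neuromesodermal list (TBXT, CDX2, FGF8, FGF17 and NKX1-2) summed to 152 to 478 FPKM in srNMPs and to 9.32 FPKM or less in inductions and neurons. Of this list, NKX1-2 was higher in ESCs (49.6 FPKM) than in any srNMP library (at most 11.2 FPKM). The skeletal muscle list summed to 1974.5 FPKM at day 40 and 3093 FPKM at day 50, and to 2.36 FPKM or less in the 12 neural and srNMP libraries. The 9-gene neuron list summed to 158 to 442 FPKM in srNMPs, 489 to 968 FPKM in inductions and 1652 to 2123 FPKM in neurons. In ESCs it summed to 236 FPKM, within the srNMP range, and its gene DCX reached 76.3 FPKM in muscle. Neural progenitor markers overlapped between inductions (1579 to 2205 FPKM in sum) and neurons (1029 to 1848 FPKM). Of these, NES and VIM were highest in muscle, at up to 595 and 2233 FPKM. Line labels were a different matter: 6 transcripts that tell the lines apart went against the label in 2 of 15 libraries, both RASS. Across the 14129 genes, which are not independent replicates, the HUES9 minus H1 difference in RASS correlated with that of the other groups at r = -0.533 to -0.167, where the other pairs of groups gave 0.0691 to 0.377. The RASS libraries are therefore named by their label only, and calls that were lost without them are marked as such beside the result.

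The summed level of the 9 genes was low in srNMPs, highest in the inductions and intermediate in neurons. It was 17.8, 12.2 and 6.42 FPKM in the passage 8 H1, passage 8 HUES9 and passage 25 H1 srNMPs, and 49.7 FPKM in the passage 25 HUES9 srNMPs. RABC inductions held 152 FPKM (H1) and 104 FPKM (HUES9), and RASS inductions 137 FPKM (labelled H1) and 181 FPKM (labelled HUES9). Dorsal neurons held 87.4 and 101.6 FPKM and ventral neurons 59.1 and 77.8 FPKM in H1 and HUES9. ESCs held 3.0 FPKM, and muscle 0.528 FPKM at day 40 and 0.429 FPKM at day 50. The 3 states from srNMP to neuron did not overlap in this sum. The margin between inductions and neurons was narrow, at 104 FPKM in HUES9 RABC and 101.6 FPKM in HUES9 dorsal neurons.

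**Figure D1:**
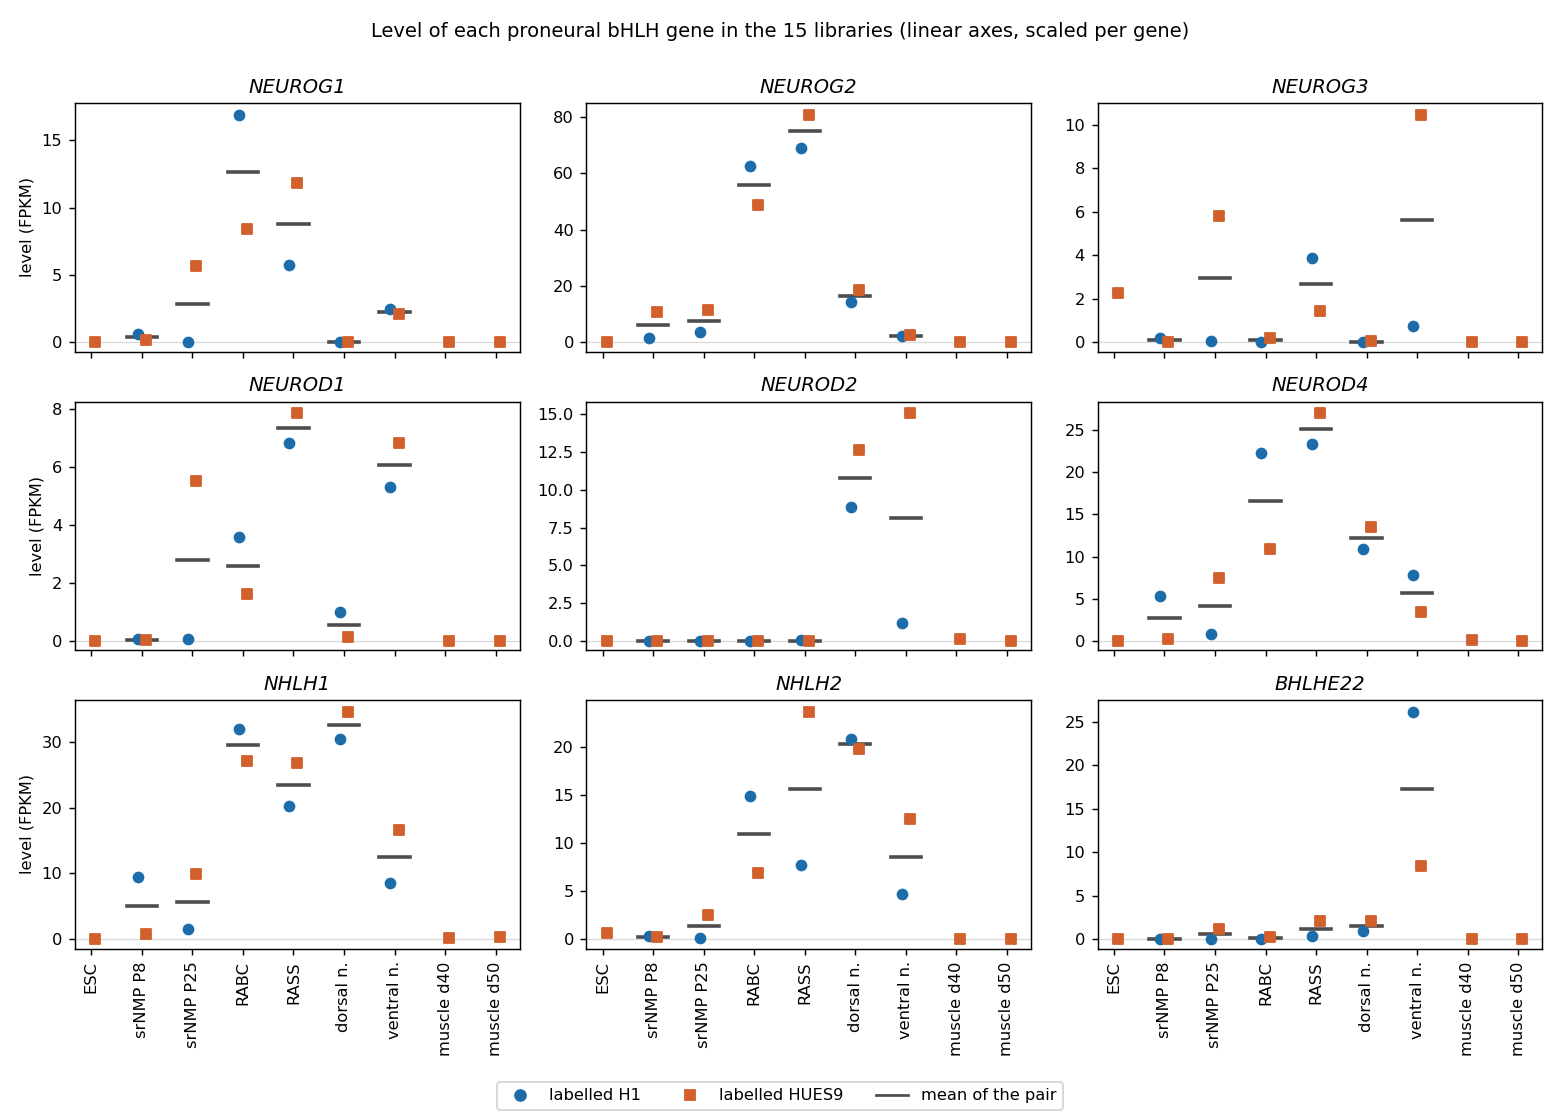
Level (FPKM, linear axes scaled per gene) of each of the 9 genes in the 15 libraries; circles are libraries labelled H1, squares libraries labelled HUES9, and bars the mean of a pair. NEUROG2 stood at 48.7 to 80.7 FPKM in the 4 inductions and at 18.7 FPKM or less elsewhere, while NEUROD2 was above 1 FPKM in the neurons only.

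The leading gene changed along the way. NEUROG2 made up 41.2% to 50.3% of the summed level in the 4 inductions, 16.5% and 18.4% in dorsal neurons and 3.60% and 3.26% in ventral neurons (H1 and HUES9). In dorsal neurons NHLH1 led with 34.8% and 34.0%. Ventral neurons had no common leader: BHLHE22 took 44.2% in H1 and 10.8% in HUES9, where NHLH1 led with 21.3%. ESCs had NEUROG3 as 75.0% of their small sum. These shares compare genes on a per-length scale and are descriptions of single libraries.

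**Figure D2:**
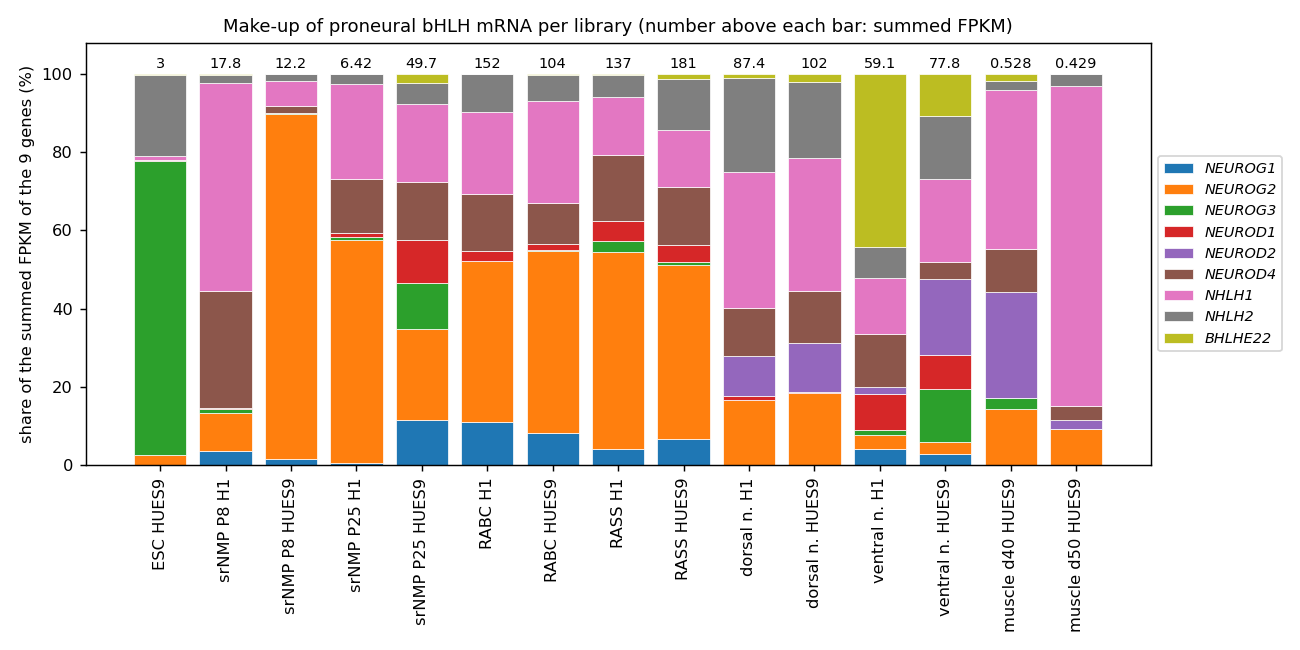
Share (%) of the summed FPKM of the 9 genes taken by each gene in each library, with the summed FPKM printed above the bar. NEUROG2 is the largest segment in all 4 inductions (41.2% to 50.3%), and NHLH1 in both dorsal neuron libraries (34.8% and 34.0%).

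As proneural factors bind E-boxes, the 250 bases before the start sites were read. Whether E-boxes bear on the levels of the 9 genes was not tested. RefSeq promoters (GRCh38.p14) matched 8 of the 9 genes; the build differs from the one named for the expression values, so no position here refers to those files. Capitals mark CANNTG, which reads the same on both strands. It stood in the windows of 5 of the 8 genes, near the general rate, as 61.8% of 35114 RefSeq windows of the same length hold it. It was missing from those of 3 (NEUROG1, NEUROG2 and NEUROD1), of which only NEUROG2 is printed. Shown are NEUROG2, the highest of the 9 in the inductions, the 3 genes most alike in pattern (NEUROD4, NHLH1 and the upstream of 2 NHLH2 starts), and NEUROD2, which appeared with the neurons. They lie at chr4:112516181-112516430 (minus strand), chr12:55019724-55019973 (plus), chr1:160366821-160367070 (plus), chr1:115841127-115841376 (minus) and chr17:39607921-39608170 (minus), each ending at the base before the start site.
NEUROG2: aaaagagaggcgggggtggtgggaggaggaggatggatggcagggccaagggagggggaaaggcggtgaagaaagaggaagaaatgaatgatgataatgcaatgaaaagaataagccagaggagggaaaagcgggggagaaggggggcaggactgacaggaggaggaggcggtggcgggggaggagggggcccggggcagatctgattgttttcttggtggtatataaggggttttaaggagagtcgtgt
NEUROD4: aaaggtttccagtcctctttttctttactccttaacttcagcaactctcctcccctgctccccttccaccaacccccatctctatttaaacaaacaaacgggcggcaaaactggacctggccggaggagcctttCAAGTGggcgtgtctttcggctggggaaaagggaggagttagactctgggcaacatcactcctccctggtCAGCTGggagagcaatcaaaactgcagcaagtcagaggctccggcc
NHLH1: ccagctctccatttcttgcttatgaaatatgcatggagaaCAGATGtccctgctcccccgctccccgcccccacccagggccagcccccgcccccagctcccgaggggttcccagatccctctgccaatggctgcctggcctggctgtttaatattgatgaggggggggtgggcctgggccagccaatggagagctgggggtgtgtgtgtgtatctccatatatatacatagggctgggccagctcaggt
NHLH2: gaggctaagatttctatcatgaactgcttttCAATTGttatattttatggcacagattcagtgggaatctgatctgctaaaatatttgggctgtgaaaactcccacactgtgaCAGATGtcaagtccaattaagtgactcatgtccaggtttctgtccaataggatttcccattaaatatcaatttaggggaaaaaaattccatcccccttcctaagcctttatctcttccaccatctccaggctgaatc
NEUROD2: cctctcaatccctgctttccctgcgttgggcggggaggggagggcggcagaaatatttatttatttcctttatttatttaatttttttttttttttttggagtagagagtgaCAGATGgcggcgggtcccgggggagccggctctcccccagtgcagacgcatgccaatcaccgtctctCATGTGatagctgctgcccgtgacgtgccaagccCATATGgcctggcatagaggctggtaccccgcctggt

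The CAGATG form, read on either strand, occurs in 12.2% of all windows and was found once each in NHLH1 (its first base 210 bases before the start), NHLH2 (137 bases) and NEUROD2 (138 bases). NEUROD4 held CAAGTG at 116 bases and CAGCTG, a form found in 14% of windows, at 46 bases. NEUROD2 held CATATG, found in 2.63% of windows, at 37 bases and CATGTG at 71 bases. The letters CACNAG, the N-box linked to HES repressors, occurred on neither strand of the 9 windows examined (32% of all windows hold them). A match or its lack describes these letters in these windows only.

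At the first step, from srNMPs to the 7-day inductions, 2 of the 9 genes rose and none fell: NEUROG2 and NHLH2. Over all genes tested, 1.73% were called higher and 1.69% lower. The median difference of the 9 was 2.51, against 0.02 over all 14129 genes. An unadjusted p under 0.05 was found in 6 of the 9 and in 3379 of the 14129 genes. In 5 of the 9 (NEUROG1, NEUROG2, NEUROD4, NHLH1 and NHLH2) every induction library was above every srNMP library, which held for 8.95% of all genes tested.

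NEUROG2, the main neurogenin of the spinal cord, was at 1.72 FPKM (H1) and 10.7 FPKM (HUES9) in passage 8 srNMPs and at 3.65 and 11.6 FPKM in passage 25 srNMPs. It reached 62.7 and 48.7 FPKM in RABC, and 69.0 and 80.7 FPKM in RASS (labelled H1 and HUES9). Both HUES9 srNMP libraries were above both H1 ones, and all 4 inductions stood clear of all 4 srNMPs. The means were 65.3 ± 13.3 FPKM against 6.92 ± 4.96 FPKM (SD, n = 4 each), a difference of 3.31 ± 0.40 with a limma adjusted p of 0.0147. Without both RASS libraries the difference was 3.10 and the adjusted p 0.0986. The call was also lost without the H1 passage 25 srNMP library or without the H1 RABC library.

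NHLH2, a bHLH gene of newly formed neurons, was at 0.358 and 0.201 FPKM in passage 8 srNMPs and at 0.161 and 2.59 FPKM in passage 25 srNMPs (H1 and HUES9). Inductions held 14.9 and 6.96 FPKM (RABC) and 7.71 and 23.7 FPKM (RASS). Thus 3 of 4 srNMP libraries stayed under 0.4 FPKM, while the inductions spread over a wide range above all of them. The difference was 2.99 ± 0.46 (means 13.3 ± 7.80 and 0.8287 ± 1.18 FPKM, SD, n = 4 each; adjusted p = 0.0287). This call held in 10 of 20 alternative settings, and without both RASS libraries the difference was 2.80 with an adjusted p of 0.128.

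NEUROG1, the other neurogenin of the neural tube and of sensory ganglia, missed the threshold. It measured 0.644, 0.180, 0.0345 and 5.68 FPKM in srNMPs (passage 8 H1 and HUES9, then passage 25 H1 and HUES9). RABC held 16.9 and 8.40 FPKM and RASS 5.76 and 11.9 FPKM. The lowest induction exceeded the highest srNMP library, the HUES9 passage 25 one, by less than 0.1 FPKM. The difference was 2.52 ± 0.55 with an adjusted p of 0.0567, and it was called without the replicate block, with the RASS lines exchanged and with the 12 libraries of paired groups alone. Markers of sensory neurons, which also use NEUROG1, were at 0.666 to 7.08 FPKM in sum in srNMPs and at 8.66 to 17.0 FPKM in inductions. These sums ran over 6 genes. Their part in the NEUROG1 levels was not tested.

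NEUROD4 and NHLH1, which mark cells leaving the cycle and young neurons, also differed without passing the test. NEUROD4 was at 5.32, 0.210, 0.879 and 7.43 FPKM in the srNMPs in the same order. It measured 22.3 and 10.9 FPKM in RABC and 23.3 and 27.0 FPKM in RASS, a difference of 2.65 ± 0.66 (adjusted p = 0.0735). NHLH1 was at 9.46, 0.784, 1.57 and 9.89 FPKM in srNMPs, at 32.0 and 27.1 FPKM in RABC and at 20.2 and 26.7 FPKM in RASS, a difference of 2.51 ± 0.65 (adjusted p = 0.0812). In both genes the H1 passage 8 and HUES9 passage 25 srNMPs were the high pair and the other 2 srNMP libraries the low pair.

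NEUROD1, a direct target of the neurogenins and a gene of ganglia and endocrine cells, overlapped between the states. In srNMPs it was at 0.0557, 0.0220, 0.0582 and 5.49 FPKM, and in inductions at 3.57 and 1.62 FPKM (RABC) and 6.81 and 7.84 FPKM (RASS); the difference of 1.70 ± 0.53 had an adjusted p of 0.12. NEUROG3, best known from endocrine progenitors of the pancreas, stood at 0 and 0.208 FPKM in RABC and at 3.87 and 1.45 FPKM in RASS, and differed from srNMPs by 0.18 ± 0.66 (adjusted p = 0.912). The 4 endocrine pancreas markers summed to at most 0.714 FPKM in srNMPs, 1.16 to 4.95 FPKM in inductions and 12.8 to 329 FPKM in neurons. SST, which spinal interneurons also use, and GCG (1.24 and 9.41 FPKM in dorsal neurons, listed at 0 in ventral neurons) made up the neuron sums almost wholly. PDX1 was at 0.137 FPKM or less in srNMPs and listed at 0 in all inductions and neurons, and INS at 0.045 FPKM in 1 ventral neuron library and at 0 in the others. Their part in the NEUROG3 levels was not tested. BHLHE22, a repressor of the group found in spinal interneurons, ranged from 0 to 2.11 FPKM in inductions and from 0 to 1.20 FPKM in srNMPs, and NEUROD2 from 0 to 0.0468 FPKM and from 0 to 0.00957 FPKM.

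**Figure D3:**
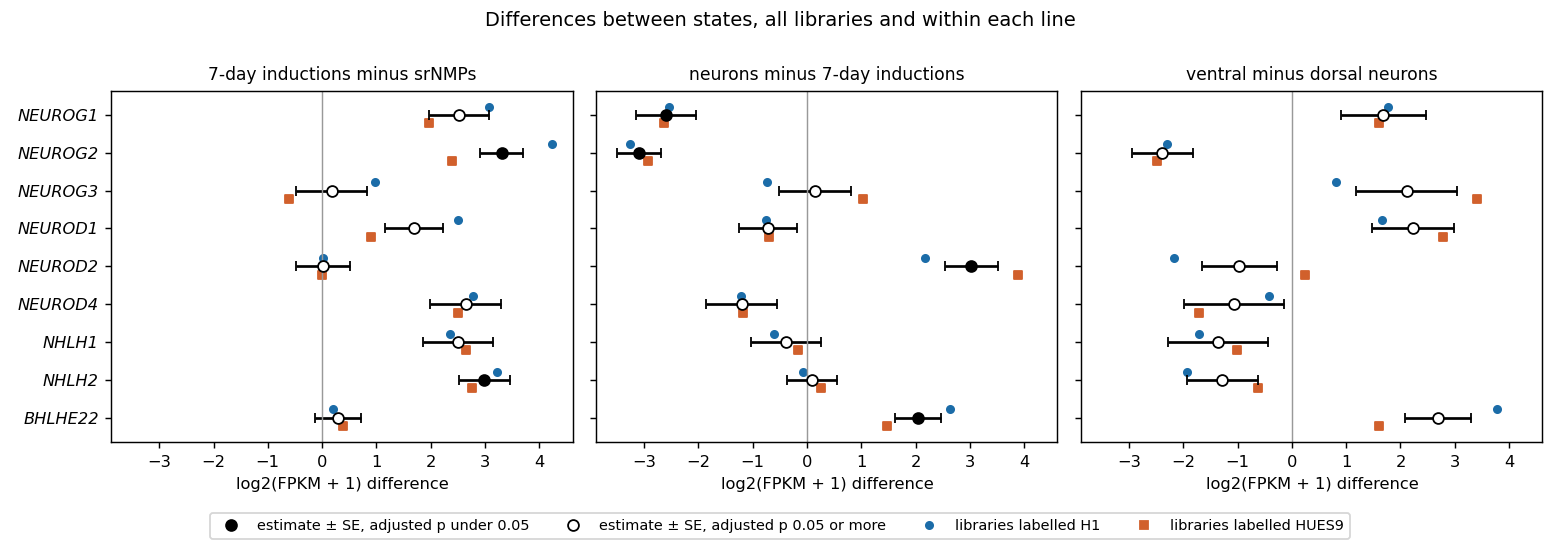
Differences in log2(FPKM + 1) for the 9 genes in 3 comparisons; large circles with bars are the limma estimate ± standard error (filled where the adjusted p was under 0.05), and small markers are the differences within the libraries labelled H1 and HUES9. NEUROG1 and NEUROG2 lie right of 0 at the first step and left of it at the second, and ventral minus dorsal neurons shows no filled circle.

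From the inductions to neurons, NEUROG1 and NEUROG2 fell, BHLHE22 rose, and 5 genes did not pass the test. NEUROD2 was also called higher, but it entered the test through the neurons alone, where it is high, so its call is no support for a rise of the 9. Over all genes 16.5% were called lower and 21.3% higher, so calls in this comparison were common. The median difference was -0.38 for the 9 genes and 0.04 for all genes. All 20 alternative settings gave the same 4 calls, including the one without both RASS libraries.

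NEUROG2 was at 14.5 and 18.7 FPKM in dorsal neurons (H1 and HUES9) and at 2.13 and 2.54 FPKM in ventral neurons, all under the lowest induction at 48.7 FPKM. The difference was -3.10 ± 0.40 (means 9.46 ± 8.41 and 65.3 ± 13.3 FPKM, SD, n = 4 each; adjusted p = 0.00176). NEUROG1 was at 0.0172 and 0.0170 FPKM in dorsal neurons, which is 1 fragment in each library, and at 2.47 and 2.09 FPKM in ventral neurons. It differed from the inductions by -2.59 ± 0.55 (means 1.15 ± 1.31 and 10.7 ± 4.81 FPKM, SD, n = 4 each; adjusted p = 0.0104). For both neurogenins no neuron library reached any induction library, a separation in this direction seen in 17.4% of all genes tested.

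NEUROD2, a factor of maturing neurons, was listed at 0 in 2 of the 4 inductions and at up to 0.0468 FPKM in the others, close to its 3-fragment floor of 0.0286 FPKM. It reached 8.86 and 12.7 FPKM in dorsal neurons and 1.18 and 15.1 FPKM in ventral neurons, where the H1 library was the low one. Every neuron library was thus above every induction library, which held for 21.2% of all genes tested. The means were 9.44 ± 6.07 and 0.0140 ± 0.0223 FPKM (SD, n = 4 each), a difference of 3.03 ± 0.49. Fitted with no filter on low values, so that its entry does not depend on the neurons, NEUROD2 had a limma adjusted p of 0.00819. BHLHE22 was at 0.978 and 2.09 FPKM in dorsal neurons and at 26.1 and 8.39 FPKM in ventral neurons. In inductions it was at 0 and 0.224 FPKM (RABC) and at 0.391 and 2.11 FPKM (RASS), so dorsal neurons overlapped with RASS while ventral neurons were far above. The difference was 2.05 ± 0.43 (adjusted p = 0.00936).

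Among the genes that did not pass, NHLH2 and NHLH1 were nearly level between the states on average. NHLH2 was at 20.9 and 19.8 FPKM in dorsal neurons and 4.70 and 12.5 FPKM in ventral neurons, a difference from the inductions of 0.09 ± 0.46 (adjusted p = 0.905). NHLH1 was at 30.4 and 34.5 FPKM in dorsal neurons and 8.54 and 16.6 FPKM in ventral neurons, a difference of -0.38 ± 0.65 (adjusted p = 0.684). For NHLH1 both ventral values lay below all 4 inductions; for NHLH2 the H1 ventral value did, while the HUES9 one lay within their range. NEUROD4 was at 10.8 and 13.6 FPKM in dorsal and 7.87 and 3.42 FPKM in ventral neurons (difference -1.20 ± 0.66, adjusted p = 0.189). NEUROD1 differed by -0.72 ± 0.53 (adjusted p = 0.322) and NEUROG3 by 0.15 ± 0.66 (adjusted p = 0.889).

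Proliferation markers were called lower at the second step only, and neuron markers were called higher at both. The 5 proliferation genes summed to 348 to 415 FPKM in srNMPs, 380 to 474 FPKM in inductions and 67.8 to 317 FPKM in neurons. The 317 FPKM was in HUES9 dorsal neurons, and the other neuron libraries held 67.8 to 109 FPKM. None of the 5 was called from srNMPs to inductions, while all 5 were called lower in neurons, BIRC5, which guards chromosome segregation, by -1.98 ± 0.29 (adjusted p = 0.0025); 16.5% of all genes were called lower there. Without both RASS libraries 3 of the 5 were called. Of the 9 neuron markers, 5 rose at each step, beside 1.73% and then 21.3% of all genes, the microtubule gene DCX by 3.29 ± 0.66 (adjusted p = 0.0475) and then by 2.55 ± 0.66 (adjusted p = 0.0216). Without both RASS libraries 0 of the 9 were called at the first step (DCX 2.83, adjusted p = 0.254) and 6 at the second, and with no filter 1 was called at the first. How far cell make-up set the levels of the 9 genes was not tested.

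Set against srNMPs, neurons were higher in NEUROD2, NHLH1, NHLH2 and BHLHE22, 4 of the 9 genes with NEUROD2, which passed the filter through the neurons alone, and none was called lower; 28.8% of all genes were called higher and 23.2% lower. These contrasts reuse the srNMP and neuron libraries of the steps above. NHLH2 differed by 3.08 ± 0.46 (adjusted p = 0.00176), NEUROD2 by 3.05 ± 0.49 (adjusted p = 0.00528 with no filter) and BHLHE22 by 2.35 ± 0.43 (adjusted p = 0.00366). NHLH1 differed by 2.12 ± 0.65 (adjusted p = 0.0293), a call lost without the H1 passage 25 srNMPs or without any 1 of the 4 neuron libraries. NEUROG2 and NEUROG1 were not called, at 0.21 ± 0.40 (adjusted p = 0.683) and -0.07 ± 0.55 (adjusted p = 0.93). The sign of each turned under 1 other scaling (-0.06 for NEUROG2 with quantile normalization, 0.02 for NEUROG1 at equal summed FPKM). Both averages join unlike neuron types. In dorsal neurons NEUROG2 (14.5 and 18.7 FPKM) was above every srNMP library, and NEUROG1 (0.0172 and 0.0170 FPKM) below every one. In ventral neurons NEUROG1 (2.47 and 2.09 FPKM) was above all srNMP libraries but the HUES9 passage 25 one (5.68 FPKM).

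By level, the order of states for NEUROG2 was inductions, dorsal neurons, srNMPs, ventral neurons, then ESCs (0.0792 FPKM) and muscle (0.0753 and 0.0391 FPKM). Dorsal neurons (16.6 ± 3.02 FPKM, SD, n = 2) stood above the highest srNMP library, and ventral neurons (2.33 ± 0.290 FPKM, n = 2) lay within the srNMP range. For NHLH1 dorsal neurons and inductions overlapped at the top and ventral neurons overlapped with the 2 higher srNMP libraries. In ESCs, NEUROG3 was the only one of the 9 above 1 FPKM (2.25 FPKM), NHLH2 was at 0.619 FPKM, and NEUROG1, NEUROD1 and NEUROD2 were listed at 0. In muscle none reached 1 FPKM; the highest value was NHLH1 at 0.351 FPKM on day 50. These 3 libraries are single, so no test was made.

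Dorsal and ventral neurons were compared directly, and none of the 9 genes was called, where 2.04% of all genes were. An unadjusted p under 0.05 was found in 3 of the 9 and in 2333 of the 14129 genes tested. Levels separated between the 2 neuron types in 8 of the 9 genes, 4 in each direction, with 25.9% of all genes separating upward in ventral neurons and 20.6% downward. NEUROG2 was lower in ventral neurons by -2.39 ± 0.56 (2.33 ± 0.290 against 16.6 ± 3.02 FPKM, SD, n = 2 each; adjusted p = 0.0953), at close values in both lines (-2.30 in H1 and -2.48 in HUES9). BHLHE22 differed by 2.69 ± 0.60 in the other direction (17.3 ± 12.5 against 1.53 ± 0.787 FPKM; adjusted p = 0.0823). NEUROD1 was at 5.31 and 6.80 FPKM in ventral and at 1.00 and 0.127 FPKM in dorsal neurons (2.22 ± 0.76, adjusted p = 0.204), and NEUROG1 differed by 1.69 ± 0.78 (adjusted p = 0.351). NHLH1, NHLH2 and NEUROD4 had lower ventral values in both lines, by -1.37, -1.28 and -1.07 on average, with adjusted p of 0.403 to 0.671.

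NEUROG3 and NEUROD2 set the lines apart within the ventral neurons. NEUROG3 was at 0.760 FPKM in H1 and 10.5 FPKM in HUES9 ventral neurons, against 0 and 0.0761 FPKM in dorsal neurons (2.11 ± 0.93, adjusted p = 0.32). NEUROD2, at 1.18 FPKM in H1 and 15.1 FPKM in HUES9 ventral neurons, surrounded the dorsal values of 8.86 and 12.7 FPKM (-0.97 ± 0.69, adjusted p = 0.578). Without the HUES9 ventral library NEUROD2 and BHLHE22 were called, in a fit where the 1 ventral library left is assumed to vary like the other groups, and without either passage 25 srNMP library NEUROD1 was.

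The 2 inductions differed in none of the 9 genes by the test, at a background of 0.517% called genes, and 0 of the 9 had an unadjusted p under 0.05. RASS values lay above RABC values in both libraries for 5 genes and below in 1 (NHLH1), where 27.5% and 18.4% of all genes separated in these directions. NEUROG2 differed by 0.43 ± 0.56, NEUROD4 by 0.65 ± 0.93, NEUROD1 by 1.26 ± 0.76 and NEUROG3 by 1.65 ± 0.93, all with adjusted p of 0.756 or more. OLIG2, a bHLH factor of ventral progenitors, gives the scale of what was called: its value was 0 in the 2 RABC libraries and 182 and 51.2 FPKM in the RASS ones (6.61 ± 0.80, adjusted p = 0.0253). These differences rest on the 2 RASS libraries, so no value without them exists.

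A test of whether the step to ventral neurons (from RASS) differed from the step to dorsal neurons (from RABC) called none of the 9 genes, against 0.545% of all genes; which induction led to which neuron is taken here from the pairing of the contrast and is not stated in the labels. NEUROG2 was the 1 gene of the 9 with an unadjusted p under 0.05, a threshold that 1780 of the 14129 genes tested passed. Its step was more negative toward ventral neurons by -2.82 ± 0.80 (-2.44 in the libraries labelled H1, -3.20 in those labelled HUES9; adjusted p = 0.221).

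Between passages 8 and 25 no gene at all was called (0% of 14129, 255 with an unadjusted p under 0.05), and 0 of the 9 had an unadjusted p under 0.05. The HUES9 passage 25 library stood apart from the other 3 srNMP libraries. It held 8 of the 9 genes at 1 FPKM or more, where the others held 1 to 3. Over the whole table, 10785 to 12102 of 17999 genes reached 1 FPKM in each of the 15 libraries. Its neuron marker sum was 442 FPKM against 158 to 263 FPKM, its proneural target sum 156 FPKM against 62.9 to 90.0 FPKM, and PAX6, a neural progenitor gene chosen after its values were seen, was at 24.5 FPKM against at most 0.324 FPKM. The 5 neural progenitor markers together did not set it apart, with 1320 FPKM against 1201 to 1535 FPKM. Without this library the differences from srNMPs to inductions were 3.23 for NEUROG1, 2.41 for NEUROD1 and 3.39 for NEUROD4. With all libraries they were 2.52, 1.70 and 2.65, and without the H1 passage 25 library 1.82, 0.99 and 1.92. NHLH1 differed by 3.31 without the H1 passage 8 library and by 2.51 with all. These fits leave 1 library in a group, and the calls over all genes moved widely with them, so only effect sizes are given.

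The DNA-binding partners, the E proteins TCF3, TCF4 and TCF12, were present throughout, so that at least 1 stood above 25 FPKM in every library. None of the 3 was called from srNMPs to inductions. TCF3 fell from 76.6 ± 11.0 FPKM in inductions to 37.8 ± 13.5 FPKM in neurons (-1.05 ± 0.19, adjusted p = 0.00558). TCF12 was at 68.3 ± 3.41 FPKM in dorsal and 20.5 ± 6.51 FPKM in ventral neurons (-1.72 ± 0.31, SD, n = 2 each; adjusted p = 0.0414), the same direction as NEUROG2; the adjusted p was 0.0712 without both RASS libraries and 0.0613 with no filter. TCF4 was at 23.5 and 30.7 FPKM in dorsal and 5.59 and 21.3 FPKM in ventral neurons and was called in neither of these comparisons.

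Of 11 inhibitors (ID, HES and HEY genes and REST), none was called from srNMPs to inductions. At that step 4 of the 11 had an unadjusted p under 0.05, beside 3379 of the 14129 genes tested. HES5, a Notch target, was at 2.52 to 51.3 FPKM in srNMPs and at 31.1 to 87.6 FPKM in inductions (2.46 ± 0.75, adjusted p = 0.114). From inductions to neurons 2 rose and 4 fell, beside 21.3% and 16.5% of all genes, so the rises were near the general rate. HEY1 rose by 3.40 ± 0.67 (adjusted p = 0.00779) and HES1 by 1.05 ± 0.31 (adjusted p = 0.0349, and 0.0541 with no filter), both Notch-driven repressors; without both RASS libraries the HES1 difference was 2.08. ID1 fell from 20.7 to 147 FPKM in the inductions to 0.916 to 13.2 FPKM in neurons (-3.75 ± 0.85, adjusted p = 0.0131), and ID3 by -2.78 ± 0.62 (adjusted p = 0.0124; -4.29 without both RASS libraries). HEYL and REST, a silencer of neuronal genes, were the others that fell; REST was not called without both RASS libraries (adjusted p = 0.2).

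Of 14 known proneural targets, 2 rose from srNMPs to inductions and none fell, with a median of 1.19 against 0.02 over all genes, of which 1.73% were called higher. They were MYT1, a zinc-finger factor that dampens Notch signalling (6.72 ± 3.18 against 0.814 ± 0.887 FPKM, 2.10 ± 0.39, adjusted p = 0.0394), and the splicing factor gene SRRM4 (9.25 ± 4.19 against 1.07 ± 1.40 FPKM, 2.39 ± 0.46, adjusted p = 0.0446). Both calls were lost without the RASS libraries (1.70 and 1.95, adjusted p = 0.229 and 0.253) and with no filter (adjusted p = 0.0709 and 0.0768). From inductions to neurons 3 of the 14 rose and none fell, close to the 21.3% of all genes called higher: MYT1 by 2.12 ± 0.39 (adjusted p = 0.00567), CBFA2T3, a corepressor gene, by 2.06 ± 0.21 (adjusted p = 0.000963) and SSTR2 by 1.36 ± 0.31 (adjusted p = 0.0135, and 0.133 without both RASS libraries). Against srNMPs 10 of the 14 were higher in neurons, beside 28.8% of all genes. The Notch ligand genes DLL1 and DLL3, direct targets of neurogenins, were called at neither step; DLL3 was at 7.57 ± 4.31 FPKM in srNMPs, 27.6 ± 12.1 FPKM in inductions and 24.9 ± 18.1 FPKM in neurons (SD, n = 4 each).

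**Figure D4:**
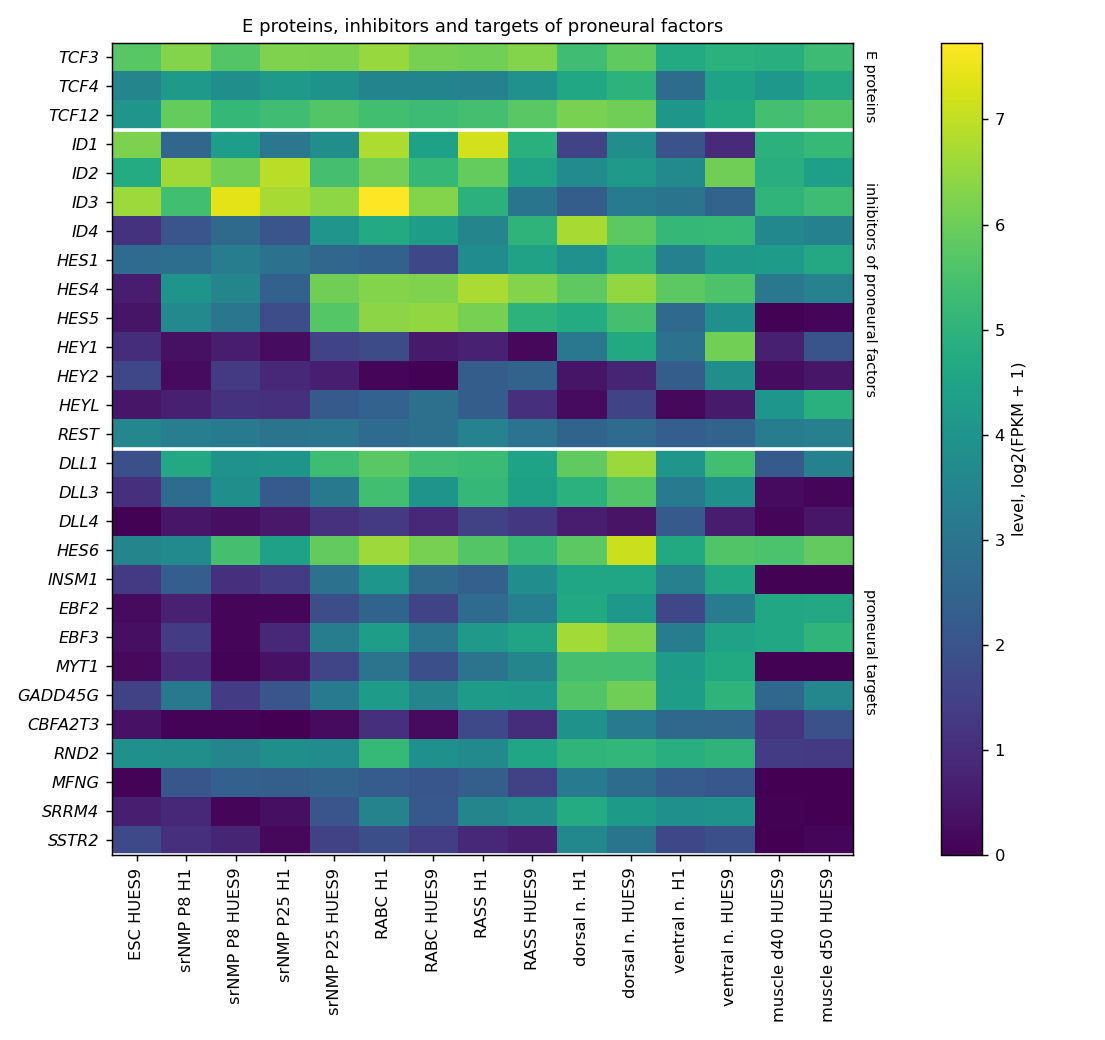
Level, as log2(FPKM + 1), of 3 E proteins, 11 inhibitors and 14 targets of proneural factors in the 15 libraries (columns). MYT1 and SRRM4 are dark in ESCs, most srNMPs and muscle and brightest in neurons, and ID1 and ID3 are darker in neurons than in most inductions.

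Among 10 Notch receptor, ligand and cofactor genes, the ligand JAG2 rose from srNMPs to inductions (1.5 ± 0.23, adjusted p = 0.0287), but without both RASS libraries the difference was 0.32 (adjusted p = 0.685) and with no filter the adjusted p was 0.0543. JAG2 was the 1 gene of the 10 called at that step, where 1.73% of all genes were called higher. RBPJ, the DNA-binding factor of the pathway, rose toward neurons by 0.51 ± 0.13 (adjusted p = 0.0224), and its coactivator MAML1 fell by 0.85 ± 0.23 (adjusted p = 0.0267, and 0.124 without both RASS libraries). From inductions to neurons 1 of the 10 was thus called higher and 1 lower, beside 21.3% and 16.5% of all genes. Of 8 genes of cell cycle exit none was called at the first step. At the second, 1 of the 8 was called higher and 1 lower, beside the same 21.3% and 16.5% of all genes. The CDK inhibitor CDKN2D rose by 2.26 ± 0.26 (adjusted p = 0.00132) and cyclin CCND2 fell from 46.8 ± 22.4 to 14.1 ± 7.96 FPKM (adjusted p = 0.00517). Neural progenitor marker NES went up by 1.51 ± 0.25 (adjusted p = 0.0326, 0.16 without both RASS libraries and 0.0612 with no filter) and then down, from 467 ± 84.2 to 206 ± 76.6 FPKM (adjusted p = 0.00914), and neuromesodermal FGF8 went from 102.4 ± 46.2 FPKM in srNMPs to 0.336 ± 0.531 FPKM in inductions (adjusted p = 0.00178, and 0.00793 without both RASS libraries).

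The pattern of each gene over the 15 libraries was set beside that of 11260 genes, as Pearson's r of log2(FPKM + 1). The libraries share lines and states, and r is given as a description. NEUROD4, NHLH1 and NHLH2 were alike (r = 0.949 for NEUROD4 with NHLH1, 0.902 for NHLH1 with NHLH2 and 0.853 for NEUROD4 with NHLH2), and the cyclin gene CCNT2 and the POU factor gene POU3F4 were among the 3 nearest to both NEUROD4 and NHLH1 (r = 0.955 to 0.964). NHLH2 lay nearest to KLHL35 (0.967), ST18 (0.961) and SRRM4 (0.954). NEUROG2 was nearest to TFDP2 (0.905), STX2 (0.905) and HES5 (0.900), and NEUROG1 to SPTLC2 (0.907), CELSR1 (0.893) and PAX6 (0.849). NEUROD2 was nearest to KCNJ10 (0.953), CHL1 (0.950) and C1orf158 (0.950), and BHLHE22 to CCDC60 (0.939), DPP6 (0.925) and SYT7 (0.923). NEUROD1 (GRK3 0.900, DRD2 0.899) and NEUROG3 (0.792) both had the ventral homeodomain gene NKX6-1 among their 3 nearest. NEUROG1 and NEUROD2 were the least alike pair of the 9 (r = -0.264).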

How the data were processed

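Per the labels' protocols, TruSeq Stranded mRNA libraries were sequenced on an Illumina NovaSeq. The submitters' processing notes name Cufflinks, HTSeq, HISAT2 and Trimmomatic and the human genome build hg18; roles, versions and gene lengths are not given in the sources used here. The deposited table lists FPKM computed by the authors for 17999 gene symbols, and genes are named by these symbols. Its 1 column of values that matched no sample was not used.

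Depth was read from the smallest values. Of 21313 values of up to 0.1 FPKM in 3124 genes, 85.27% were whole multiples of the value of 1 fragment within 2%, and depth relative to the mean was 0.954 to 1.051. Summed FPKM was 290306 to 421109 per library, and 10785 to 12102 genes reached 1 FPKM. Fragments are not independent molecules, so floors of 3 fragments cover counting error only.

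The 14129 genes that reached 1 FPKM in 1 or more libraries were tested. limma 3.58.1 in R 4.3.3 was fitted to log2(FPKM + 1) of all 15 libraries, with 1 mean per group, the cell line as a replicate block, a variance trend, 5 residual and 2.16 prior degrees of freedom. The 7 contrasts were tested two-sided and adjusted over all genes by Benjamini and Hochberg. Groups with 1 library (3) add nothing to the spread. The pairing of libraries comes from the line in the labels. Line differences across genes correlated negatively between RASS and every other group. Between the other groups the correlation was positive but low in places (r = 0.0691 to 0.377).

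All 9 genes are named. From each further list, up to 2 called genes in each direction with the largest change and a mean of at least 5 FPKM are named for the first 2 steps, with all E proteins, and so are the 3 genes most like each member in pattern; other genes named were chosen after their values were seen. Some listed genes are not reported here. The members and lists were chosen with earlier results of these data known. Lists covered E proteins, other neural bHLH genes, inhibitors, targets, Notch genes, cell cycle exit, and markers of proliferation, neurons, neural progenitors, pluripotent and neuromesodermal cells, neural crest, sensory neurons, cortex, endocrine pancreas, photoreceptors and muscle. Alternatives changed the pseudocount, filter, scaling, block, RASS lines and libraries.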

Additional observations from a re-analysis of the deposited data

Results flagged for a closer look

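The HUES9 passage 25 srNMP library lay far above the other 3 srNMP libraries in 5 of the 9 genes. Its level was 5.68 FPKM for NEUROG1, 5.83 FPKM for NEUROG3, 5.49 FPKM for NEUROD1, 2.59 FPKM for NHLH2 and 1.20 FPKM for BHLHE22. The gap to the next library was 0.892, 0.970, 0.993, 0.919 and 0.964 of the whole range of the 4 libraries. All were past Dixon's 95% critical value, which chance passes in about 5% of single groups of independent, normal values. Here the 9 genes were screened in srNMPs, inductions and neurons, and the 5 share 1 library. How many of all genes pass the rule was not computed, so the count is a description only. The homeodomain gene NKX6-1 and PAX6 were also highest in this library among the srNMPs.

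NEUROG3 at 10.5 FPKM in HUES9 ventral neurons stood apart from the other 3 neuron libraries by 0.927 of the range.

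NEUROD4 and NHLH1 moved in opposite directions between passages in the 2 lines, a difference that was not tested. From passage 8 to passage 25, NEUROD4 differed by -1.75 in H1 and 2.80 in HUES9 on the log2(FPKM + 1) scale, and NHLH1 by -2.03 and 2.61.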

How the results depend on the processing

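The step from inductions to neurons called the same 4 of the 9 genes in every setting that left out no single library. NEUROD2 is 1 of the 4, and where the filter applied it entered through the neurons alone, so its call adds no support. Other counts moved, and the cause was not tested unless a setting removes samples or genes. From srNMPs to inductions, 2 genes of the 9 were called, but 1 without the filter, 3 without the replicate block, 3 with the block and RASS lines exchanged, 4 with the 12 libraries of paired groups alone, 0 without both RASS libraries (a setting chosen after seeing the data) and 0 to 5 when 1 library was left out. Leaving out 1 library gave 3 to 6 genes (4 with all) for neurons against srNMPs, 0 to 2 for ventral against dorsal neurons (where a group keeps 1 library, it is assumed to vary like the others) and 0 to 1 for the difference of the 2 steps; for RASS against RABC and for the passages it was 0 throughout.

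Over all genes, the 484 calls from srNMPs to inductions became 191 without the filter, 772 without the replicate block, 875 with RASS lines exchanged, 706 at a pseudocount of 0.1, 25 without both RASS libraries and 45 to 2277 with 1 library left out. For RASS against RABC, 73 became 48 without the filter, 113 with lines exchanged and 8 to 73 with 1 library left out. For the difference of steps, 77 became 20 at a pseudocount of 0.1, 127 with lines exchanged and 6 to 182 with 1 library left out. Leaving out 1 library gave 3290 to 5993 (5343 with all) from inductions to neurons, 5392 to 7674 (7355) for neurons against srNMPs, 137 to 398 (288) for ventral against dorsal neurons and 0 to 5 (0) for the passages.

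Rescaling to equal summed FPKM shifted the median of all genes to 0.15, 0.14 and 0.29 for the 3 comparisons of states, and to 0.11 for RASS against RABC. The share of calls that were higher went from 50.6% to 62% (srNMPs to inductions), from 56.4% to 66.4% (inductions to neurons) and from 55.4% to 72.1% (neurons against srNMPs). With quantile normalization it was 46.3% and 44.8% in the last 2, and 56.6% in place of 71.9% for ventral against dorsal neurons.

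Signs of uncalled differences turned in places. Without both RASS libraries NEUROG3 gave -0.65 and BHLHE22 -0.16 from srNMPs to inductions. NEUROG3 gave -0.06 from inductions to neurons at a pseudocount of 0.1. Against srNMPs, neurons gave 0.02 for NEUROG1 at equal summed FPKM and -0.06 for NEUROG2 with quantile normalization. With 1 library left out, ranges that cross 0 were -0.40 to 0.76 (NEUROG3) and -0.17 to 0.20 (NEUROD2) from srNMPs to inductions, and -0.44 to 0.73 (NEUROG3) and -0.37 to 0.55 (NHLH2) from inductions to neurons. For neurons against srNMPs they were -0.77 to 0.64 (NEUROG1), -0.22 to 0.65 (NEUROG2) and -0.26 to 0.91 (NEUROG3). For RASS against RABC they were -1.24 to 0.29 (NEUROG1), -0.18 to 1.04 (NEUROG2), -0.34 to 0.39 (NEUROD2) and -0.53 to 1.29 (NHLH2). For the passages they were -0.49 to 2.33 (NEUROG1), -0.44 to 1.31 (NEUROG2), -0.09 to 2.76 (NEUROD1), -0.33 to 0.34 (NEUROD2), -0.94 to 1.99 (NEUROD4) and -1.31 to 1.90 (NHLH1). NEUROD2 gave -2.37 to 0.43 for ventral against dorsal neurons and -2.40 to 0.40 for the difference of steps, where NEUROG3 gave -0.70 to 1.63.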

Other observations

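Of 13 other neural bHLH genes listed, 9 reached the filter. Between dorsal and ventral neurons 2 of the 9 were called, both lower in ventral neurons, beside 2.04% of all genes called in either direction. OLIG1, OLIG2 and OLIG3 went the other way without a call. Their highest values were 8.08, 4.79 and 55.9 FPKM in ventral neurons and 0, 0 and 0.132 FPKM in dorsal neurons. NEUROD6 and PTF1A passed the filter only through neurons, where they are high. Their p-values are therefore given from the limma fit with no filter on low values, which called 2 of the 13. NEUROD6, a relative of NEUROD2, was listed at 0 in all srNMPs and inductions and averaged 11.2 ± 12.9 FPKM in neurons (SD, n = 4). It stood at 20.5 ± 12.6 FPKM in dorsal and 1.96 ± 1.21 FPKM in ventral neurons (SD, n = 2 each; adjusted p = 0.0397). PTF1A, a factor of dorsal inhibitory interneurons, was at 2.58 ± 1.60 and 0.105 ± 0.0658 FPKM (adjusted p = 0.0381). ATOH1, which acts in the dorsal-most spinal progenitors, was at 16.9 FPKM in H1 RABC, 0.406 FPKM in HUES9 RABC and listed at 0 in both RASS libraries.

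Markers outside the spinal cord gave the following. SST, which spinal interneurons and endocrine cells both use, rose from inductions to neurons by 4.02 ± 0.76 (adjusted p = 0.0065). TFAP2B, a neural crest and dorsal interneuron gene, was at 53.8 ± 15.9 FPKM in dorsal and 0.0152 ± 0.00946 FPKM in ventral neurons (adjusted p = 0.00165), and POU4F1, a gene of sensory and dorsal neurons, at 38.6 ± 12.5 and 0.309 ± 0.128 FPKM (adjusted p = 0.0435, and 0.0698 with no filter). The crest gene SOX10 was at 9.89 FPKM in HUES9 passage 8 srNMPs and at 0.241 FPKM or less in the other srNMPs. The 5 cortex markers summed to at most 9.41 FPKM in srNMPs, 8.29 FPKM in inductions and 5.26 FPKM in neurons, and the 3 photoreceptor markers to at most 0.786 FPKM.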
